A study of Mus musculus with 16 samples.

Results

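The genes described here encode the THO complex, the nuclear pore, its transport receptors and a few partner factors of mRNA export. They were taken by a rule on symbols that was set with earlier results of these data known: every RefSeq gene named Thoc, Nup, Xpo, Ipo, Tnpo or Nxf followed only by digits, plus Tpr, Ranbp2, Mcm3ap, Zc3h11a, Alyref, Ddx39b, Cse1l, Sarnp and Pabpn1. This gave 53 genes, of which 34 (64.2%) carried a THOC5 peak in at least 1 of 8 peak lists. Of 21900 RefSeq protein-coding genes, 3947 (18%) did, and since the list includes genes named by hand, such as Zc3h11a and Mcm3ap, the 2 shares are a description. A gene counted as bound in a list when the deposited annotation placed at least 1 peak in its exons, introns, UTRs or transcript end. The 34 genes carried 249 of the 28000 peaks that lay in genes.

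RNA that co-precipitated with THOC5 was sequenced from primary mouse vascular smooth muscle cells after RNA immunoprecipitation and rRNA depletion. The 4 conditions, with 2 lists each, were wild-type cells in growth medium (Ctrl), wild-type cells in osteogenic medium (Pi), cells overexpressing GFP in osteogenic medium (GFP OE) and cells overexpressing THOC5 in osteogenic medium (THOC5 OE). The genotype label of the GFP OE cells was wild type, and the labels do not describe how GFP or THOC5 was introduced. The labels do not state whether the 2 replicates of a condition were separate cultures or animals, so every p measures only the spread between these samples, which may be technical.

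The THO complex is a nuclear assembly that travels with RNA polymerase II and, with the helicase DDX39B and the adaptor ALYREF, forms the TREX complex on new transcripts. TREX hands mRNA to the receptor NXF1, which carries it through the nuclear pore, a ring of nucleoporins with filaments on the cytoplasmic side and a basket on the nuclear side. Exportins and importins move proteins and some RNAs through the same channel under control of the GTPase Ran. THOC5 is therefore a subunit of the machinery whose own transcripts are examined here.

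The lists held 2572 to 4795 peaks, with 1 peak width per list, from 415 to 553 bp. Each peak has a score from the authors' caller, used here only to rank peaks within a list: a percentile is the share of the list's peaks with a score at or below that of the peak, so 100 is the strongest. The lowest score in a list was 14.9 to 29.0 in Ctrl and Pi and 6.31 to 12.6 in the overexpression lists, and these ranges do not overlap. Read depth, inputs and RNA levels were not analysed here. A gene can therefore lack a peak because its transcript is scarce, and more transcript and more binding per transcript cannot be told apart. Nor can fewer cells of a type and less RNA per cell in such bulk samples. Of the smooth muscle markers 5 of 8 were bound (Mylk in all 8 lists, Acta2 in 3, Smtn in 2, Tagln and Lmod1 in 1 each), and Myh11, Cnn1 and Des had no peak. None of 5 endothelial and 0 of 4 leukocyte markers had a peak, against 1 of 5 fibroblast markers (Pdgfra) and 1 of 5 osteoblast markers (Runx2, in both Pi lists and GFP OE 2).

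Most peaks lay in introns and inside gene bodies, and 3 genes had a peak that touched the 300 bases around an annotated RefSeq transcript start (250 before to 50 after it). The bases at those starts are shown as points of reference, and only in Nup98 does a peak cover the start itself. The 15 capitals are the first transcribed bases, the 15 lower-case letters are the bases before them, and each runs 5′ to 3′ on the gene's strand (RefSeq, GRCm38.p6).
Nup98: gggcccggggcctgcGGCCTGGCTCGGGAG
Nup155: ggacgaaccggaagtGCGTCATGACCTGGC
Nup214: catctaccacgcgccGCGGGCGCTGAGGGA
The Nup98 bases lie at chr7:102209853-102209882 on the minus strand, and peaks of GFP OE 1 and THOC5 OE 2 cover them, running from -111 to 309 bp and from -103 to 435 bp relative to the start. The annotation classes these as promoter peaks, so they are not among the 17 Nup98 peaks counted below. The Nup155 bases lie at chr15:8109298-8109327 on the plus strand, and peaks of Ctrl 2 and THOC5 OE 1 begin 7 and 42 bp downstream, in exon 1. The Nup214 bases lie at chr2:31974435-31974464 on the plus strand, and a THOC5 OE 2 peak begins 48 bp downstream, in intron 1. The 300-base windows hold 74.7%, 62.7% and 64% G and C, against a median of 63.3% in 55 windows of 44 of the genes and 52.7% in all 32851 windows.

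Within the THO complex the THOC2 transcript was the one bound throughout: Thoc2 had a peak in all 8 lists, while Thoc1 had one in 2 lists, Thoc3, Thoc5 and Thoc7 in 1 each and Thoc6 in none. THOC2 is the large scaffold subunit on which the complex is built. Thoc2 (chrX:41794992-41911937, minus strand, 116946 bp) carried 4 and 3 peaks under Ctrl, 1 and 2 under Pi, 7 and 4 with GFP OE and 4 and 5 with THOC5 OE. The overexpression lists held at least as many Thoc2 peaks as any other list, with a tie at 4, and Pi held the fewest. How many of all bound genes show that order was not counted. The mean was 5 ± 1.41 peaks (SD, n = 4) in the overexpression lists and 2.5 ± 1.29 (SD, n = 4) in Ctrl and Pi, a difference that did not pass the two-sided exact permutation test (p = 0.0857; adjusted over 4051 bound genes by the Benjamini-Hochberg method, p = 1). Its best peak stood at percentile 89.4 and 84.5 under Ctrl, 87.2 and 87.7 under Pi, 90.9 and 91.4 with GFP OE and 91.7 and 92 with THOC5 OE. Thoc2 was thus among the higher-ranked targets of every list.

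The Thoc2 peaks fell at 10 places, a place being a set of peaks from different lists that overlap by at least 1 base. The place at chrX:41806439-41807044, in exon 35 of 39 and the intron before it, was shared by 7 lists, Pi 1 being the exception. A place at chrX:41813399-41814185, in exon and intron 32, was present in all 6 osteogenic lists and in neither Ctrl list. It was 1 of 118 places in these genes with that pattern, and 0.176% of the 11927 places of all genes had it. A place in exons 14 and 15 (chrX:41843873-41844573) was present in all 4 overexpression lists and in no other, again 1 of 118, against 0.822% of all places. The reverse, a place in all 4 Ctrl and Pi lists and in no overexpression list, was found for 0 of 118 places and 0.285% of all. A place in intron 10 (chrX:41858220-41858674) was shared by both Ctrl lists only. The Thoc2 places thus occurred in different sets of lists. At 0.847% and 1.69% of the 118 places, the overexpression-only and Ctrl-only patterns were near their shares of all places, 0.822% and 1.35%.

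The other THO subunits were bound sparsely and, for most, weakly. THOC1 is a core subunit, and its gene had 1 peak in Ctrl 2 (intron 15 of 20, percentile 43.5) and 1 in THOC5 OE 2 (intron 1, percentile 35.8). Thoc3 had 1 peak, in its 3' UTR in Ctrl 2, at percentile 0.0313. Thoc7 had 1 peak, in intron 8 of Pi 1, at percentile 12, at a place that overlaps the RefSeq gene Gm11100, and Thoc5 had 1, in Ctrl 2, at percentile 3.73. No list from cells overexpressing THOC5 placed a peak on Thoc5, and the peak lists do not give the level of the introduced transcript.

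**Figure D1:**
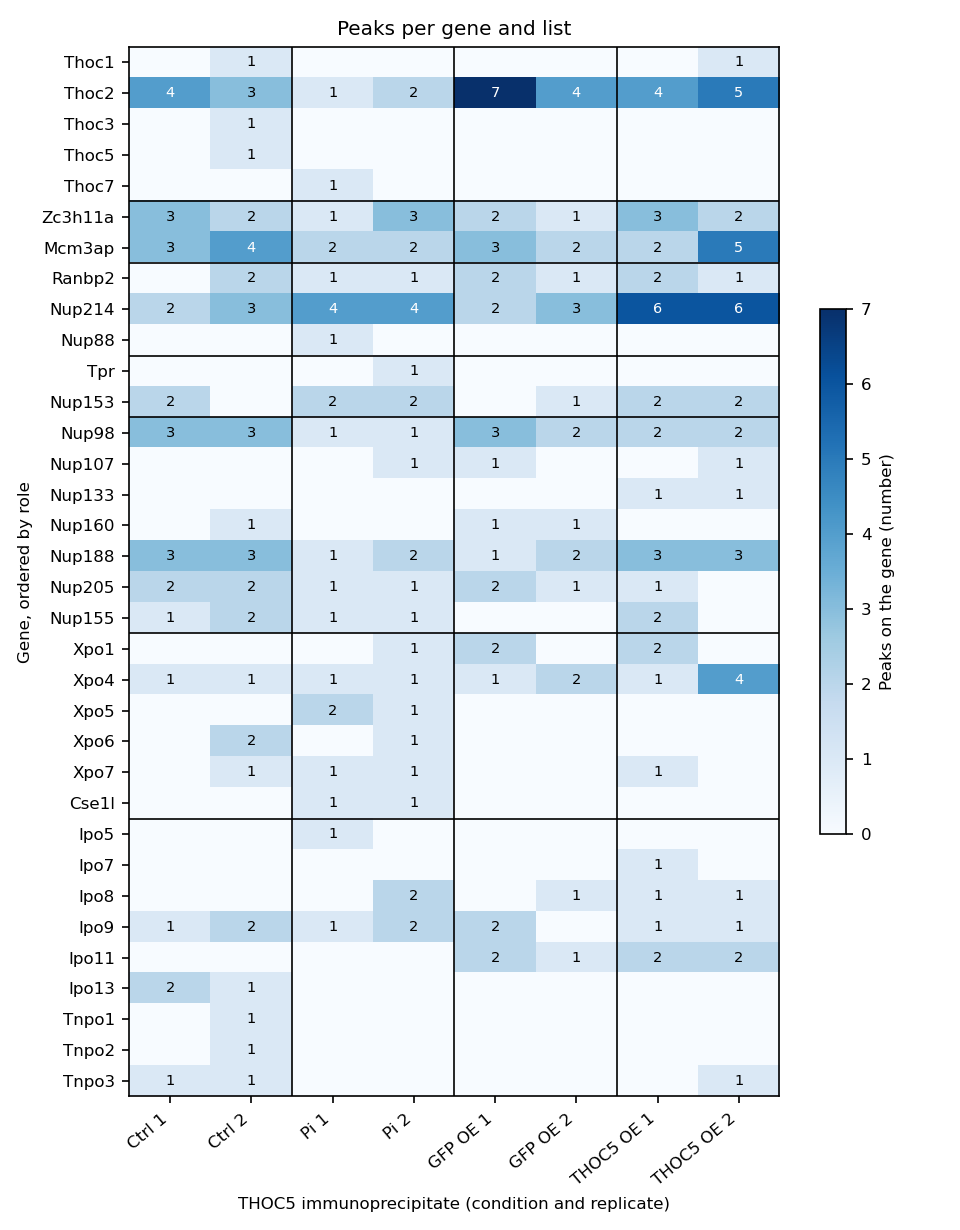
Number of peaks on each of the 34 bound genes (rows, ordered by role and separated by horizontal lines) in each of the 8 lists (columns, separated by condition); the colour scale and the printed digits give the same number, and a blank cell is 0. Thoc2, Zc3h11a, Mcm3ap, Nup214, Nup98, Nup188 and Xpo4 are filled across the whole row, and Ipo11 is filled only in the 4 overexpression columns.

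Among the mRNA export factors, Zc3h11a and Mcm3ap were bound in all 8 lists and the other 8 had no peak. ZC3H11A is a zinc-finger protein that associates with TREX, and MCM3AP (GANP) is the scaffold of TREX-2, a complex that links transcribed genes to the pore. The genes without a peak were Alyref, Ddx39b and Sarnp, which encode TREX components, Nxf1, the main mRNA export receptor, its relatives Nxf2, Nxf3 and Nxf7, and Pabpn1, the nuclear poly(A)-binding protein. Core partners of the THO complex were thus among the genes without a peak. The authors' nearest-gene column names Snrpe or Zbed6 for the Zc3h11a peaks and Ybey or Lss for those of Mcm3ap, and by that column neither gene counts as bound.

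Zc3h11a (chr1:133619862-133661399, minus strand) carried 3 and 2 peaks under Ctrl, 1 and 3 under Pi, 2 and 1 with GFP OE and 3 and 2 with THOC5 OE. By score its best peak ranked between 22 and 36 from the top of each list. That peak lay in the 3' UTR, in exon 17 of 17, at chr1:133620968-133621593 in every list. It was the only place of these genes found in all 8 lists, 1 of 118, whereas 2.64% of all places were. Another place, in exon 7 and the adjoining intron (chr1:133638672-133639181), was found in 5 lists at percentiles of 96.8 to 97.6. A further place, in exon 12 (chr1:133626890-133627428), was found in both THOC5 OE lists and in no other, at percentile 98.8 in each. This was 1 of 118 places with that pattern, against 2.61% of all places. The Zc3h11a peaks were strong wherever they occurred, with no peak below percentile 86.7.

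Mcm3ap (chr10:76468902-76515859, plus strand) carried 3 and 4 peaks under Ctrl, 2 and 2 under Pi, 3 and 2 with GFP OE and 2 and 5 with THOC5 OE. Its best peak ranged from percentile 62.8, in Pi 2, to 94, in GFP OE 1. The peaks fell at 7 places spread between 1.77 kb and 46.6 kb from the gene start. The strongest, in exon 2 (chr10:76470390-76470963), was found in Ctrl 1, GFP OE 1 and THOC5 OE 2, which are lists of 3 conditions but never both lists of one. Places in intron 8 and intron 12 were each found in 6 lists. A place in intron 4 (chr10:76476547-76476990) was shared by both Ctrl lists only, as was the Thoc2 place in intron 10. These were 2 of 118 places with that pattern, against 1.35% of all. No condition stood apart in its number of Mcm3ap peaks.

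**Figure D2:**
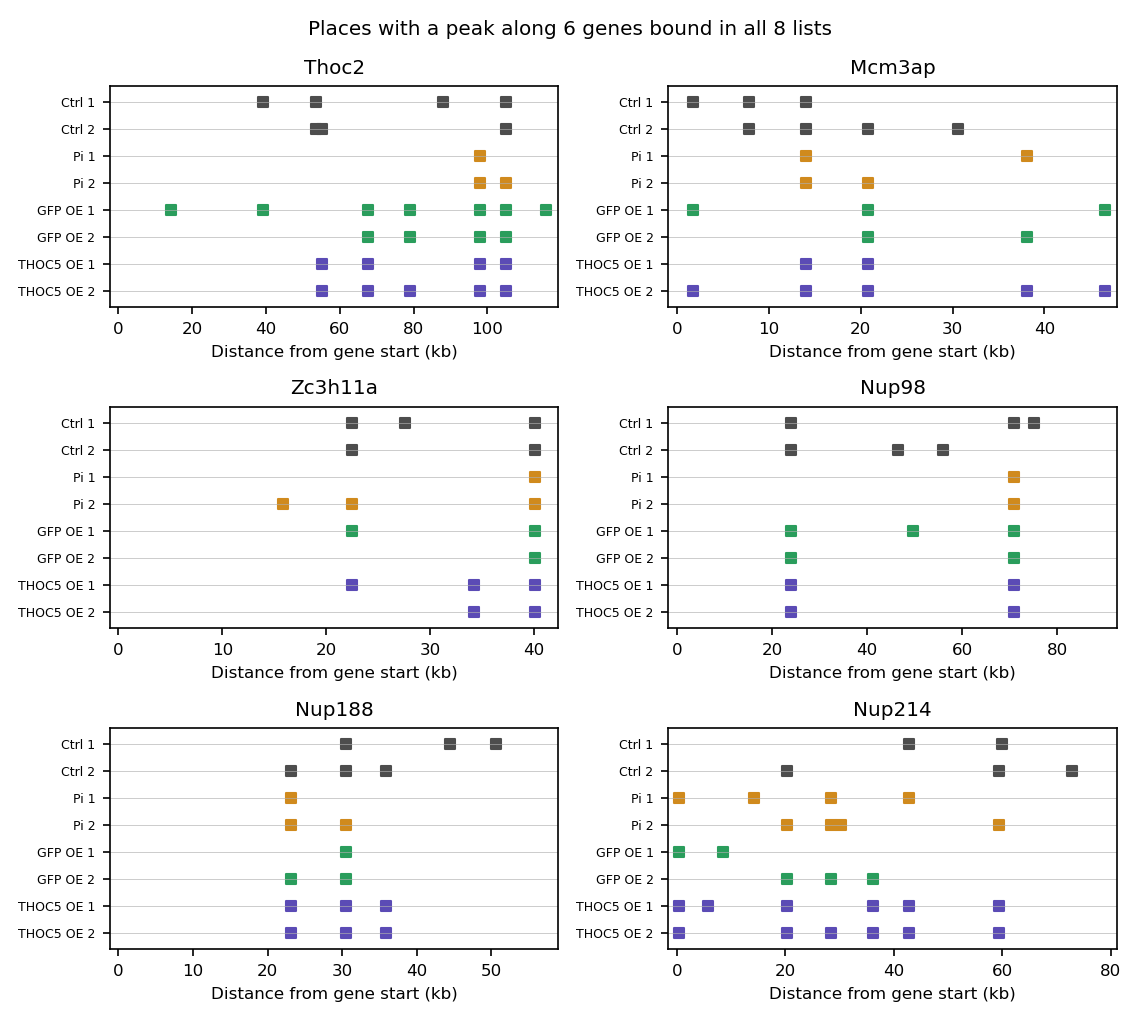
Places with a peak along 6 of the 7 genes bound in all 8 lists; the horizontal axis is the distance in kb from the gene start in the direction of transcription, each row is 1 list and each square is 1 place. The Zc3h11a place near 40.1 kb is filled in every row, the Thoc2 place near 98.1 kb is filled in the 6 osteogenic rows and empty in both Ctrl rows, and the Thoc2 place near 67.7 kb is filled in the 4 overexpression rows alone.

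On the cytoplasmic side of the pore, Nup214 was bound in all 8 lists, Ranbp2 in 7 and Nup88 in 1. NUP214 is a filament nucleoporin that, with NUP88, forms the platform where mRNA leaves the pore, and RANBP2 is the large filament protein that binds Ran. Nup214 (chr2:31974408-32053975, plus strand) carried 2 and 3 peaks under Ctrl, 4 and 4 under Pi, 2 and 3 with GFP OE and 6 and 6 with THOC5 OE. Both THOC5 OE lists held more Nup214 peaks than any other list, and the Ctrl and GFP OE lists held the same numbers. The share of all bound genes with that pattern was not counted. At 4618 and 4240 peaks in all, the THOC5 OE lists were also the longest after Ctrl 2. For THOC5 OE against GFP OE, with 2 lists against 2, the smallest two-sided exact permutation p is 0.333. Its best percentile was 53.9 and 79.5 under Ctrl, 58 and 74.8 under Pi, 43.1 and 69.9 with GFP OE and 77.9 and 76.1 with THOC5 OE. The replicates of Ctrl, Pi and GFP OE stood far apart in rank and those of THOC5 OE close together. The peaks fell at 12 places. The most shared, with 5 lists, lay in exon 12 and the introns beside it (chr2:31994198-31995287). The place in exon 22 overlaps the RefSeq gene Gm13609 and that in intron 32 overlaps Fam78a, and without strand the peak cannot be given to either gene.

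Ranbp2 (chr10:58446852-58494155, plus strand) had no peak in Ctrl 1, 2 in Ctrl 2, 1 in each Pi list, 2 and 1 with GFP OE and 2 and 1 with THOC5 OE. Its best peaks stood at percentiles 73.5 to 90.7 in 6 lists and at 25.8 in GFP OE 2, whose peak was the one at the gene start. A place in intron 4 (chr10:58454707-58455260) was found in both Pi lists and nowhere else, beside a place in intron 5 (chr10:58455373-58455849) in Ctrl 2, GFP OE 1 and THOC5 OE 1. The peaks of the Pi lists and of those 3 lists thus adjoin without overlapping. Nup88 had 1 peak, in intron 6 of Pi 1, at percentile 30.7.

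In the nuclear basket, Nup153 was bound in 6 lists, Tpr in 1 and Nup50 in none. These encode the basket nucleoporins, TPR forming its filaments. Nup153 carried 2 and 0 peaks under Ctrl, 2 and 2 under Pi, 0 and 1 with GFP OE and 2 and 2 with THOC5 OE. All 6 bound lists shared a place in intron 3 (chr13:46712767-46713623), at percentiles 56.7 to 83.9, part of which is annotated as a B3 SINE or AT-rich repeat. A place in exon 1 (chr13:46727112-46727650), in Pi 2 and both THOC5 OE lists, overlaps the RefSeq gene Gm46412. Tpr had 1 peak, in intron 16 of Pi 2, at percentile 82.5.

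Of 15 genes for the scaffold and channel, 7 had a peak, and Nup98 and Nup188 had one in all 8 lists. Nup98 encodes a mobile nucleoporin of the channel whose precursor also yields a scaffold subunit, and NUP188 and NUP205 are large inner-ring subunits. Nup98 (chr7:102119400-102210166, minus strand) carried 3 and 3 peaks under Ctrl, 1 and 1 under Pi, 3 and 2 with GFP OE and 2 and 2 with THOC5 OE. Its best percentile lay between 50.9, in GFP OE 1, and 61, in THOC5 OE 2, in the middle of every list. The place in intron 21 (chr7:102138894-102139480) was found in 7 lists, all but Ctrl 2, and that in intron 6 (chr7:102186008-102186561) in 6, all but the Pi lists. Pi thus held the fewest Nup98 peaks, at 1 place each, and each other list held 2 or 3. How many of all bound genes have that pattern was not counted.

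Nup188 (chr2:30286407-30344266, plus strand) carried 3 and 3 peaks under Ctrl, 1 and 2 under Pi, 1 and 2 with GFP OE and 3 and 3 with THOC5 OE. Its best percentile was 37.3 and 62.3 under Ctrl, 36.8 and 52.6 under Pi, 46.8 and 52.3 with GFP OE and 70.8 and 66.9 with THOC5 OE. Ctrl and THOC5 OE held the same number of peaks, above Pi and GFP OE, and the share of all bound genes with that order was not counted. The place in intron 14 (chr2:30316637-30317176) was in 7 lists and that in intron 10 in 6, while a place in exon 17 (chr2:30322020-30322558) was in Ctrl 2 and both THOC5 OE lists. Nup205 was bound in 7 lists, all but THOC5 OE 2, with 1 or 2 peaks each at 6 places, none of them in more than 3 lists. Nup205 and Nup188 were thus bound in similar numbers of lists, but no Nup205 place recurred as widely as the Nup188 places in introns 14 and 10.

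The Y-complex and inner-ring genes split widely. Nup155 was bound in 5 lists, Nup107 and Nup160 in 3 each and Nup133 in 2. Nup107 had 1 peak in Pi 2, GFP OE 1 and THOC5 OE 2, all at or below percentile 16.4. No peak lay on Nup85, Nup37 or Nup43, the remaining Y-complex members by this rule, on Nup93 or Nup35 of the inner ring, on Nup54 or Nup62 of the channel, or on Nup210 of the pore membrane.

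All 6 exportin genes were bound in at least 2 lists, and Xpo4 in all 8. XPO4 exports a translation factor, XPO1 (CRM1) is the general exporter of proteins with a leucine-rich signal, XPO5 exports pre-miRNAs, XPO6 exports actin with profilin, and CSE1L returns importin alpha to the cytoplasm. Xpo4 (chr14:57577521-57668232) carried 1 peak in each list except GFP OE 2, with 2, and THOC5 OE 2, with 4. Its best percentile was 23.7 and 8.85 under Ctrl, 15 and 26.1 under Pi, 41.1 and 35 with GFP OE and 49.7 and 49.8 with THOC5 OE. The best Xpo4 peak thus stood below the middle of every list, though close to it with THOC5 OE, unlike those of Thoc2 or Zc3h11a. The most shared place, in intron 12 (chr14:57603753-57604307), was in 5 lists, and at least 1 of its peaks is annotated as a B1 SINE repeat. Xpo1 had 2 peaks in THOC5 OE 1, 2 in GFP OE 1 and 1 in Pi 2, and none in the other 5 lists. The 2 places common to GFP OE 1 and THOC5 OE 1, in exons 15 and 16 and in the 3' UTR, stood at percentiles 85.8 to 94.4. Xpo1 was therefore highly ranked in 1 list of each overexpression condition and missing from the other. Xpo7 had 1 peak in 4 lists, at percentiles 26.5 to 46, and Xpo6 had 2 peaks in Ctrl 2 and 1 in Pi 2.

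Of 10 importin genes 9 were bound, but 4 of them (Ipo5, Ipo7, Tnpo1 and Tnpo2) in 1 list only and none in all 8. Importins carry proteins into the nucleus, and transportins (TNPO) are a branch that includes importers of RNA-binding proteins. Ipo9 was the most often bound, in 7 lists (all but GFP OE 2), with 1 or 2 peaks each. Its place in intron 3 (chr1:135419396-135420050), where at least 1 peak is annotated as a MIR SINE repeat, was shared by 6 lists at percentiles 51 to 70.9. Ipo8 had 2 peaks in Pi 2 and 1 each in GFP OE 2, THOC5 OE 1 and THOC5 OE 2. The last 3 shared a place in intron 7 that Pi 2 lacked. Tnpo2, a close relative of Tnpo1, had 1 peak in Ctrl 2 alone, in exon 8 at percentile 84.1. Ipo4 had no peak.

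**Figure D3:**
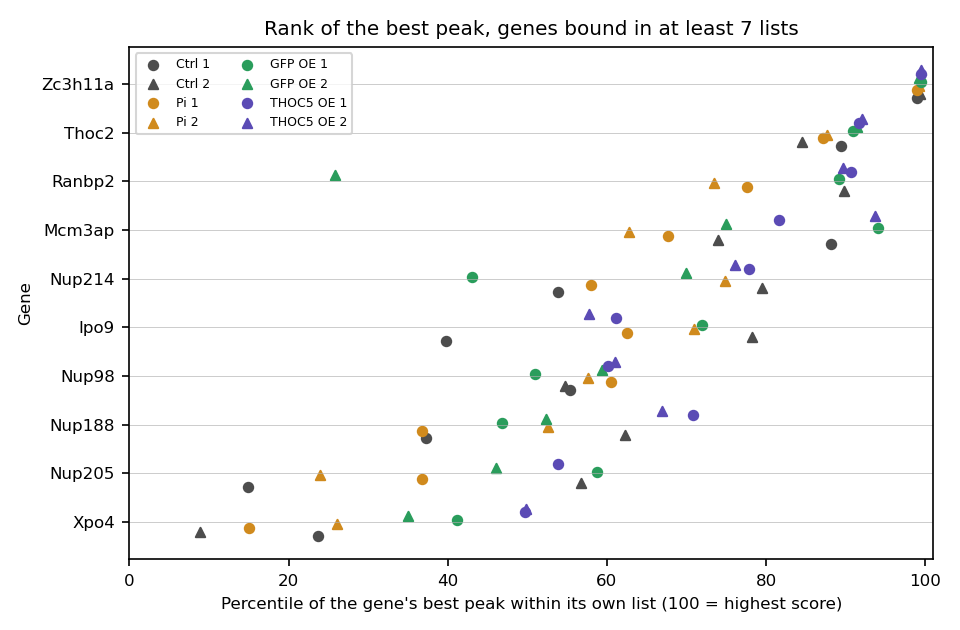
Percentile of the best peak within its own list (horizontal axis, 100 is the highest score) for the 10 genes bound in at least 7 lists (rows); colour gives the condition and marker shape the replicate. Zc3h11a sits at 99 to 99.5, Thoc2 at 84.5 to 92 and Xpo4 at 8.85 to 49.8; lists differ in length, so ranks are not read across conditions.

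Across all roles, 7 of the 34 bound genes were bound in every list (20.6%), against 9.87% of all bound genes, and 9 were bound in 1 list only (26.5%), against 37.2%. The genes in 1 list were Thoc3, Thoc5, Thoc7, Nup88, Tpr, Ipo5, Ipo7, Tnpo1 and Tnpo2. Of the 118 places 67 (56.8%) were seen in 1 list, against 49.1% of all places, and 51 (43.2%) in at least 2 lists, against 50.9%. Only 4 places were in 7 or 8 lists, those of Zc3h11a in the 3' UTR, Thoc2 in exon 35, Nup98 in intron 21 and Nup188 in intron 14. A larger share of these genes than of bound genes at large was bound in every list, while a smaller share of their places recurred. Zc3h11a and Mcm3ap, 2 of the 7, were named by hand with earlier results known, so these shares are a description. No test of this set was made.

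The number of genes bound was lowest with GFP OE, apart from Ctrl 1. It was 13 and 21 under Ctrl, 18 and 20 under Pi, 14 and 13 with GFP OE and 18 and 16 with THOC5 OE, which was 0.948% to 1.17% of all genes bound in the same list. The means were 17 ± 5.66 under Ctrl, 19 ± 1.41 under Pi, 13.5 ± 0.707 with GFP OE and 17 ± 1.41 with THOC5 OE (SD, n = 2 each). Both GFP OE lists lay below every Pi and THOC5 OE list, and the Ctrl lists spanned the whole range of the other conditions. Over all genes the GFP OE lists were also below, with 1423 and 1231 bound genes. Pi had 1541 and 1912 and THOC5 OE 1649 and 1688, so this order is not particular to the set. The number of genes did not follow list length throughout: Ctrl 1 and 2 had 2603 and 4795 peaks in all, but Pi 1 had 18 genes in 2666 peaks and GFP OE 1 had 14 in 3711. Ctrl 2 held the only peak of Thoc3, Thoc5, Tnpo1 and Tnpo2.

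Osteogenic medium was compared with growth medium in cells without overexpression. Xpo5 and Cse1l had peaks in Pi 1 and Pi 2 but none under Ctrl, 2 of the 31 genes bound in any of these 4 lists, while 3.25% of all genes bound there met the rule. Ipo13 and Tnpo3 had peaks in Ctrl 1 and Ctrl 2 but none under Pi, also 2 of 31, against 3.63% of all genes. Xpo5 had 2 peaks in Pi 1, 1 in Pi 2 and none in the other 6 lists. Both Pi lists shared a place in its last exon, 32 of 32, with part in the 3' UTR (chr17:46241948-46242749), at percentiles 85.8 and 85.7. With the Ranbp2 place in intron 4, this made 2 of 118 places found in both Pi lists and no other, against 0.688% of all places. Xpo5, the pre-miRNA exporter, was the best ranked of the genes set apart in this comparison.

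Cse1l had 1 peak in each Pi list, in intron 5 (percentile 44.1) in Pi 1 and in exon 20 (percentile 40.2) in Pi 2, and so no shared place. Ipo13, which moves cargo in both directions, had 2 peaks in Ctrl 1, in intron 9 and exon 2, and 1 in Ctrl 2, in intron 7, at percentiles 32.6 to 56.3. Tnpo3, the importer of serine- and arginine-rich splicing factors, had 1 peak in Ctrl 1, in exon 8, and 1 in Ctrl 2, in intron 12, at percentiles 29.7 and 33.9, and another in THOC5 OE 2. By the authors' nearest gene, which names the gene with the closest start, Xpo5 had no peak and Cse1l had one in all 8 lists, through peaks that lie in Arfgef2, so neither call was made. Neither Cse1l, Ipo13 nor Tnpo3 had a place in common between the 2 lists that set it apart. With 2 lists against 2 no gene can pass the exact permutation test, whose smallest p is 0.333. With peaks at or above each list's median score only the Xpo5 call remained, and with lists of equal length the Tnpo3 call ended. Without introns the Cse1l, Ipo13 and Tnpo3 calls ended. These counts also turned on single lists: without Ctrl replicate 1 the number bound in Ctrl and not Pi was 8, without Ctrl replicate 2 the number bound in Pi and not Ctrl was 4, and it was 6 without Pi replicate 1 and 5 without Pi replicate 2.

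Overexpression of THOC5 was compared with that of GFP in the same medium. Nup133 had peaks in THOC5 OE 1 and 2 but none with GFP OE, 1 of the 22 genes bound in any of these lists, while 6.34% of all genes met the rule. Nup160 had peaks in GFP OE 1 and 2 but none with THOC5 OE, 1 of 22, against 1.20% of all genes. Both encode subunits of the Y complex of the scaffold. Nup133 had 1 peak in intron 7 in THOC5 OE 1 and 1 in intron 1 in THOC5 OE 2, at percentiles 26.9 and 19.1, and none elsewhere. Nup160 had 1 peak in intron 13 in GFP OE 1 and 1 in exon 3 in GFP OE 2, at percentiles 33.6 and 34.4, and 1 in intron 16 in Ctrl 2. Neither gene had a place in common between its lists. The count bound in THOC5 OE and not GFP OE was 2 without GFP OE replicate 1, 3 without GFP OE replicate 2, 3 without THOC5 OE replicate 1 and 4 without THOC5 OE replicate 2. That bound in GFP OE and not THOC5 OE was 2 without THOC5 OE replicate 1. The Nup133 call ended (0 genes) when every list was shortened to 2572 peaks or held to its median score, and Nup133 was also lost without introns and at the common score floor defined below. The Nup160 call ended at the median score and without introns (0 in each).

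GFP OE was compared with Pi to show what overexpression of an unrelated protein went with in osteogenic medium; the Pi lists are those compared with Ctrl above. Nup160 and Ipo11 had peaks in GFP OE 1 and 2 but none under Pi, 2 of 25, against 3.65% of all genes. Nup155, Xpo5, Xpo7 and Cse1l had peaks in Pi 1 and Pi 2 but none with GFP OE, 4 of 25, against 6.49% of all genes. Nup155, an inner-ring subunit, had 1 and 2 peaks under Ctrl, 1 and 1 under Pi, 0 and 0 with GFP OE and 2 and 0 with THOC5 OE, at percentiles 10.7 to 50.1. Xpo7 had 1 peak in Ctrl 2, Pi 1, Pi 2 and THOC5 OE 1. Both genes were thus missing from 3 of the 4 overexpression lists rather than from GFP OE alone. The count bound in Pi and not GFP OE was 7 without Pi replicate 2. Without introns only Xpo5 of these 4 kept its call, and Nup160 and Ipo11 lost theirs. Nup155 and Xpo7 also lost theirs without repeats.

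Ipo11 was the only one of the 34 genes with more peaks in each of the 4 overexpression lists than in any Ctrl or Pi list; 1.83% of all bound genes had that pattern. IPO11 imports ubiquitin-conjugating enzymes, and its gene, at 142520 bp (chr13:106794439-106936958, minus strand), is the longest of the 53. It carried 0 peaks in both Ctrl and both Pi lists, 2 and 1 with GFP OE and 2 and 2 with THOC5 OE, a mean of 1.75 ± 0.5 (SD, n = 4) against 0. The two-sided exact permutation p was 0.0286, the smallest that 70 assignments of the 8 lists can give, and the Benjamini-Hochberg adjusted p over 4051 genes was 1. Over all genes 108 had an unadjusted p under 0.05 and 0 an adjusted one. With 0.0286 as the smallest p, an adjusted p under 0.05 would need most of the 4051 genes to reach it. The adjusted p therefore cannot decide about a single gene. The reverse pattern was found in 0 of 34 genes and in 0.839% of all bound genes, and without THOC5 OE replicate 1 Nup155 met it.

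The Ipo11 peaks were weak and fell at 5 places. Places in intron 4 (chr13:106910327-106911011) and intron 1 (chr13:106936286-106936824) were shared by GFP OE 1 and THOC5 OE 2, and 1 peak of GFP OE 2 and 2 of THOC5 OE 1 lay elsewhere in introns. Their percentiles ran from 4.79 to 33.2. The best Ipo11 score was 28.2 and 17.9 with GFP OE and 32.7 for THOC5 OE 2, and it was lowest in THOC5 OE 1. Only that of THOC5 OE 2 exceeds 29.0, the lowest score that any peak has in Ctrl 1. When only peaks of at least that score were kept in every list, an alternative chosen after seeing the data, 0 genes had the pattern, as with lists of equal length (0), and at each list's median score Thoc2 had it in place of Ipo11; without Ctrl replicate 1, Thoc2 joined Ipo11. The sources used here do not state the scale of the score across lists, and the part of the lists' lowest scores in the Ipo11 pattern was otherwise not tested.

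Intronic peaks made up 68.7% of the 249 peaks and 58.4% of the other peaks in genes. Exonic peaks made up 25.3% against 31.4%, and 3' UTR peaks 5.62% against 6.73%. The intronic share was above that of the other genes in each of the 8 lists, from 57.1% against 52.9% in Ctrl 1 to 81.8% against 63.7% in GFP OE 2. Peaks annotated as repeats were 5.22% against 7.9%. The places were spread along the genes, with 25 of 118 in the first 20% of a gene's length and 25 in the last 20%.

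Peaks close to gene starts were unevenly spread over the lists. Within 1 kb of the start lay 18 peaks of 10 genes, 13 of them in the 4 overexpression lists and 5 in Ctrl and Pi, which is 10.2% and 4.13% of the genes' peaks there. Peaks classed as promoter are not in this count. The Nup98 peaks of GFP OE 1 and THOC5 OE 2 that cover a transcript start are therefore left out. Over all genes the shares were 6.23% and 4.89%, but these were taken over fewer peaks than all those in genes. Missing strands were filled from exon order for the genes of this set only, so the shares are not of like sets. By list the number was 0 and 2 under Ctrl, 1 and 2 under Pi, 2 and 1 with GFP OE and 4 and 6 with THOC5 OE, so only THOC5 OE stood above every other list. Over all genes, with the same limit, the share in THOC5 OE was 6.74% and 6.71%, and GFP OE 2 had 7.28%. The THOC5 OE genes were Ipo7, Nup153, Nup155 and Nup214 in list 1 and Ipo11, Nup133, Nup153, Nup214, Thoc1 and Tnpo3 in list 2. Peaks annotated as CpG islands numbered 6, on Ipo11 (in 2 lists), Ipo7, Nup133, Ranbp2 and Tnpo3, each in intron 1 and each in an overexpression list. Counted over every peak of a list, promoter and intergenic ones included, CpG-island peaks were 2.07% to 2.93% in Ctrl and Pi. In the overexpression lists they were 2.64% to 4.78%, and these ranges overlap. The 6 peaks above leave out the promoter class, so the 2 counts are not of like sets.

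The bound genes of the set were the longer ones, as among all genes. Their median length was 49392 bp, against 19493 bp for the 19 without a peak 17146 bp for all protein-coding genes and 47974 bp for the bound ones among them, so bound genes were long in general. Of 30 genes over 40 kb, 26 were bound (86.7%), against 37.5% of all protein-coding genes of that length, and of 23 shorter ones 8 were bound (34.8%), against 10.7%. The share was above that of other genes on both sides of 40 kb, a description here too, since some of the genes were named by hand. Some long genes lacked a peak and a shorter one had the strongest: Nup93 (113537 bp), Nup210 (105256 bp), Nxf3 (68057 bp) and Sarnp (55875 bp) had no peak, and Zc3h11a, at 41538 bp, had the strongest. Expression was not measured here, so the part of transcript level in these shares was not tested.

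**Figure D4:**
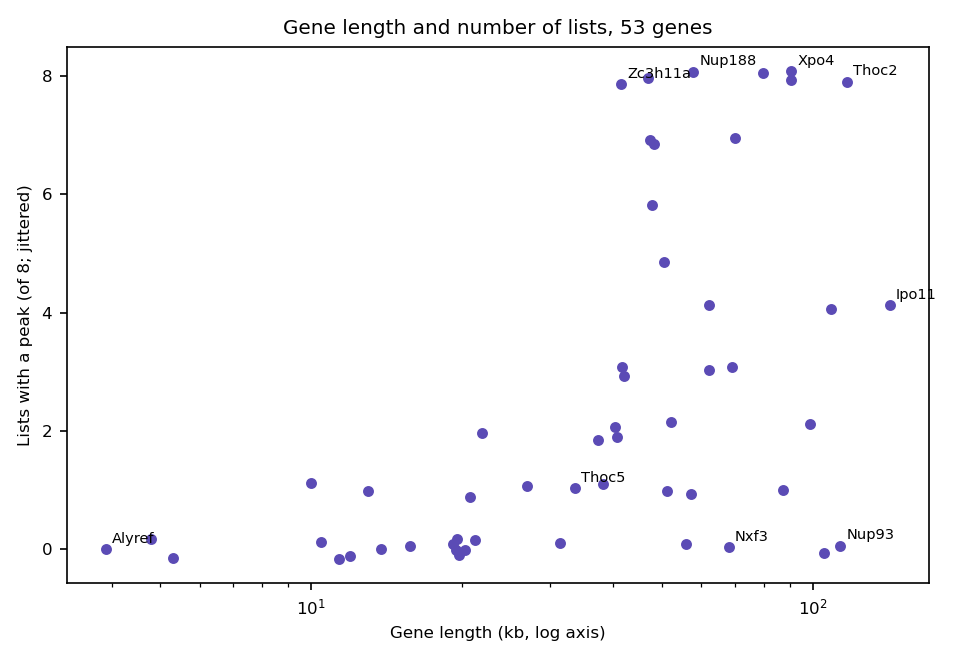
Gene length in kb (horizontal log axis) and number of lists with a peak (vertical axis, 0 to 8, shifted slightly so that points do not hide each other) for the 53 genes, 1 point each. Genes in 7 or 8 lists are all over 40 kb, and Nup93 and Nxf3 are long genes without a peak.

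Related genes outside the symbol rule were bound in shares of 22.6% to 50% per group, against 18% of all protein-coding genes. Of 10 other pore subunits 5 were bound (50%), Pom121 and Ahctf1 in all 8 lists, Rae1 in 2 and Ndc1 and Gle1 in 1 each. AHCTF1 (ELYS) anchors the pore to chromatin, and its gene carried 2 to 4 peaks per list at best percentiles of 86 to 92.6. Of 31 other mRNA export, cap-binding and exon junction factors 7 were bound (22.6%, near the share of all genes): Acin1, an exon junction protein, in all 8 lists at percentiles of 96.7 to 98.6, Srrm1 in 6, Cpsf6 in 5, Zc3h18 in 3 and Poldip3, Ncbp1 and Eif4a3 in 1 each. Cpsf6 had peaks in Pi 1 and Pi 2 but none under Ctrl, and also in GFP OE 1 and both THOC5 OE lists. Zc3h18 had peaks in THOC5 OE 1 and 2 but none with GFP OE, and also in Pi 1. Each pattern was met by 1 of the 7 bound genes. Among all genes bound in the lists compared, 3.25% met the first and 6.34% the second, so these are descriptions. Of 13 other transport receptors and Ran-cycle genes 3 were bound (23.1%), Ranbp3 in 2 lists and Xpot and Rangap1 in 1. Acin1 came nearest to Zc3h11a in rank.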

How the data were processed

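RNA bound to THOC5 was measured in 8 of 16 samples, and the inputs were not analysed here. Per the submitters' processing notes, the tools were MACS2, Bowtie2, SAMtools and FastQC, and the build was mm10; no roles are stated. Per the file headers, HOMER's annotatePeaks.pl annotated the peaks. The sources used here do not give the caller's settings or how inputs entered. The score of each peak is the authors' own value in the deposited lists. Depth is not known from these lists, so no interval was computed, and the number of lists limits the precision.

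The gene of a peak was the RefSeq transcript in its annotation. Peaks overlapping by at least 1 base were joined into places. Strand for distances came from RefSeq or, where absent and only for the bound genes of the set, from exon order. Numbers of peaks were compared over the 70 assignments of 8 lists to 4 and 4 by a two-sided exact permutation test, with Benjamini-Hochberg adjustment at 0.05. With so few assignments a single gene could not pass the adjusted threshold unless most of the genes tested reached the smallest p. The test was run on simulated data. Python 3.11.15, pandas 2.3.3, numpy 2.4.6 and matplotlib 3.10.9 were used.

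The genes and lists were chosen with earlier results of these data known. Full values are given for genes bound in all 8 lists, THO subunits and genes set apart in a comparison. The descriptions of places, gene starts, CpG islands and length were added after seeing the data. Replicate numbers did not pair the lists (correlations of differences between replicates from -0.149 to 0.069). Peak sequences were not used here. Alternatives were a score threshold, equal list lengths, the nearest gene, no introns, no repeats, a looser symbol rule, overlap of 50%, a replicate block and leaving out each list.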

Additional observations from a re-analysis of the deposited data

How the results depend on the processing

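Of 170 alternative values, 133 stayed within 1.5 times the main count and 37 did not. This compares counts, not names, and the 133 include values that the rules fixed in advance, as in the replicate block below. Without introns, Ctrl and not Pi stayed at 2, but with Mcm3ap and Nup188 in place of Ipo13 and Tnpo3. Pi and not Ctrl stayed at 2, with Nup153 in place of Cse1l. Pi and not GFP OE gave 3, of which only Xpo5 was among the main 4. With peaks at or above each list's median score, 18 genes were bound in any list and 4 in all 8. Xpo5 alone (1 gene) was then bound in Pi and not Ctrl and, again, in Pi and not GFP OE (1), and the other comparisons of a pair of conditions gave 0. More peaks in every overexpression list gave 1, but the gene was Thoc2 and not Ipo11. With every list shortened to 2572 peaks, Ctrl and not Pi gave 1, GFP OE and not Pi gave 1, THOC5 OE and not GFP OE gave 0, and no gene (0) had more peaks in every overexpression list. By the authors' nearest gene, which is the gene itself for 60.6% of its peaks, 4 genes were bound in all 8 lists (Thoc2, Nup188, Nup153 and Cse1l, of which 2 are among the 7 above), Zc3h11a, Mcm3ap and Xpo5 had no peak, Pi and not Ctrl gave 0, GFP OE and not Pi gave 4 and Pi and not GFP OE gave 1. Without introns 21 genes were bound, 1 in all 8 lists; THOC5 OE and not GFP OE gave 4, and the reverse, GFP OE and not Pi, and more peaks in every overexpression list gave 0. Without repeats, THOC5 OE and not GFP OE gave 2. The common score floor, chosen after seeing the data, gave 1 for GFP OE and not Pi and 0 for more peaks in every overexpression list. Nup133 was lost there and Ipo8 gained, with the count still 1. The cause of these moves was not tested beyond the smaller number of peaks in each alternative.

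Leaving out each list in turn gave 30 to 34 genes bound in any list, 7 to 8 in all lists, 2 to 6 in Pi and not Ctrl, 2 to 8 in Ctrl and not Pi, 1 to 4 in THOC5 OE and not GFP OE, 1 to 2 in the reverse, 2 to 2 in GFP OE and not Pi, 4 to 7 in Pi and not GFP OE, 1 to 2 with more and 0 to 1 with fewer peaks in every overexpression list, and 42 to 49 shared places. A rule met by both lists of a condition becomes easier to meet with 1 list left.

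The replicate block, which compares lists of the same number, gave 2 and 2 for Pi and Ctrl, 1 and 1 for THOC5 OE and GFP OE, 2 and 4 for GFP OE and Pi, and 1 and 0 for more and fewer peaks, the main counts. It changed no call, as the rules for a gene bound in both lists and neither of the other already require this of each pair. Crossing the numbers of Pi and GFP OE, added after seeing the data, had to give the main counts, 2 and 4, for the same reason, and is no check on them.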
